A study of Mus musculus with 20 samples.

Results

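Genes of MHC class I antigen presentation were followed in tumour endothelium from 6 mouse host backgrounds. The 10 genes were named by symbol, without use of their values, though earlier results of these data were known when they were chosen. They were the heavy chains H2-K1, H2-D1, H2-Q4, H2-Q6, H2-Q7 and H2-T23, the light chain B2m, the peptide loading genes Tap1 and Tapbp, and the proteasome subunit Psmb8. All 10 were found among the 46983 gene IDs of the tables, and all 10 were among the 14875 genes that passed the filter on low counts. MHC class I molecules carry peptides from the inside of a cell to its surface, where CD8 T cells read them. A membrane-spanning heavy chain pairs with the small soluble protein beta-2 microglobulin. Proteasomes cut proteins into peptides, the TAP transporter moves the peptides into the endoplasmic reticulum, and tapasin holds the empty class I molecule at the transporter until a peptide is bound. In endothelial cells, as in most cells, these genes are expressed at rest and are induced by interferons.

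The data were bulk RNA-seq libraries of CD31-positive cells, enriched with beads and sorted from E0771 tumours, a mouse mammary carcinoma line. Tumours grew orthotopically, in the fat pad, in hosts of the C57BL/6J strain, and were taken at 500 mm3. The hosts were wild type (WT, n = 4), CD8KO (n = 3), Tie2Cre (n = 3), CD4KO (n = 3), TCRKO (n = 3) and Tie2Cre;H2Ab fl/fl (written Tie2Cre_H2Abf, n = 4). The submitters class the first 3 as competent for CD4 T cells and the last 3 as deficient. In Tie2Cre_H2Abf hosts a floxed allele of H2-Ab1, the class II beta chain, is combined with a Cre driven by the Tie2 promoter, which is active in endothelial cells and also in blood cells. All hosts shared the strain and the tumour line, no label names an altered class I gene, and the labels give no ages. The labels do not say that each library came from its own animal, and the tests therefore see only how these samples vary, which may be technical variation. Libraries are named by background and label number. Tie2Cre and Tie2Cre_H2Abf libraries carry numbers in one range and the other 4 backgrounds numbers in another, and what the number stands for is not stated.

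The smallest library, Tie2Cre_9501, held 1543847 counts and the largest, Tie2Cre_H2Abf_9589, 11478902. The share of counts on the 10 genes was 0.106% (WT_9771) to 0.740% (CD8KO_9752). Levels are given in CPM, read counts scaled to a common effective library size, or in TPM, which is scaled for transcript length too. WT_9771 and Tie2Cre_9501 stood apart because satellite-like repeats took up to 47.1% of their counts, and CD8KO_9752 because abundant non-coding RNA took only 17.2% of its counts, against a median of 75%. A count of 3 corresponded to 0.128 to 2.45 CPM. Pecam1, which encodes CD31, stood at 433 to 1372 CPM, and all 12 endothelial identity genes were detected in every background. H2-Ab1 was at 0.709 to 6.35 CPM in Tie2Cre_H2Abf and 25.3 to 183 CPM in the other 16 libraries. Cd8a RNA was high in the 3 libraries labelled CD8KO, at 38.9 to 69.4 CPM, and at most 2.93 CPM in the other 17. RNA does not tell whether the protein was made, so Cd8a could not check the label. This background is called by its label only. Cd4 RNA was present in the CD4KO libraries (4.21 to 15.7 CPM), and Trac was at most 1.77 CPM anywhere, so neither could check its label.

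Except for B2m, the genes lie in the mouse MHC, the H2 region of chromosome 17 (GRCm38). H2-K1 is at chromosome 17, 33996017 to 34000347, H2-D1 at chromosome 17, 35262730 to 35267499, and the H2-Q genes follow H2-D1 in a row, with H2-Q4 at chromosome 17, 35379617 to 35385290, H2-Q6 at chromosome 17, 35424850 to 35430055 and H2-Q7 at chromosome 17, 35439155 to 35443773. Tap1 (chromosome 17, 34187553 to 34197225) and Psmb8 (chromosome 17, 34197721 to 34201454) are neighbours in the class II part of the region. H2-Ab1, the gene of the floxed allele, lies in the same part, at chromosome 17, 34257689 to 34269419. H2-T23 is at chromosome 17, 36029773 to 36032855, Tapbp at chromosome 17, 33915899 to 33929292 and B2m alone at chromosome 2, 122147686 to 122153083. The promoters of 5 heavy chains are shown beside those of B2m and Tap1. The levels of these heavy chains and Tap1 varied together over the libraries, and those of B2m did not. Tapbp also varied with the heavy chains and Tap1 but is not shown, and of the motifs searched its promoter held only ATTGG. Whether the motifs bear on the shared levels was not tested. The stretches are RefSeq promoter sequence (GRCm38.p6), read 5′ to 3′ on the strand of the gene and ending before the RefSeq start site. For H2-D1 that start site lies inside the gene span given above, and so does its stretch. Capitals mark the letters of the motifs searched.
H2-K1: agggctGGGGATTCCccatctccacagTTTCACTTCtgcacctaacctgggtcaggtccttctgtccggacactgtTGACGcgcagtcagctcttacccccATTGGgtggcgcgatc
H2-D1: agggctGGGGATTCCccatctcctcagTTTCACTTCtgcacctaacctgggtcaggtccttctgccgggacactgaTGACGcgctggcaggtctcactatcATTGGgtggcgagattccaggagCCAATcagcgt
H2-Q4: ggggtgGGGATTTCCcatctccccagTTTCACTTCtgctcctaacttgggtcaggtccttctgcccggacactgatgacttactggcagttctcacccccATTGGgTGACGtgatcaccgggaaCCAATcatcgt
H2-Q6: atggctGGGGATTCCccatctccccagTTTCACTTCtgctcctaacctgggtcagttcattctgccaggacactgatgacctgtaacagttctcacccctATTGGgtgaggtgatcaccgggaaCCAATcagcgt
H2-Q7: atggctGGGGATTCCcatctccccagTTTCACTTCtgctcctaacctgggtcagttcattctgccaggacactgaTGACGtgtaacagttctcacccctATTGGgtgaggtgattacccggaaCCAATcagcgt
B2m: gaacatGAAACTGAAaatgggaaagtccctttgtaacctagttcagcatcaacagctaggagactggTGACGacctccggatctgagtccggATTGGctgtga
Tap1: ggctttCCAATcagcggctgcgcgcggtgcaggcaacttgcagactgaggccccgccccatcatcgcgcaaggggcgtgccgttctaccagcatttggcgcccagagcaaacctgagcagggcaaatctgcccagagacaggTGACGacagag

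These stretches are chr17:34000348-34000464 (minus strand), and on the plus strand chr17:35262917-35263051, chr17:35379438-35379572, chr17:35424671-35424805, chr17:35439016-35439149, chr2:122147542-122147644 and chr17:34187328-34187480. The 5 heavy chain stretches hold 3 kinds of match in the same order. First comes a sequence of the NF-kappaB type, GGGGATTCC in 4 of them and a match to GGGANTTCC in H2-Q4. The reverse strand of an interferon response element, GAANTGAAA, follows close behind it in all 5. Farther on stands ATTGG, the core of the Y box bound by NF-Y. TGACG, a core of the X2 box bound by CREB-type factors, lies between them in H2-K1, H2-D1 and H2-Q7, lies after the Y box in H2-Q4 and was not matched in H2-Q6. B2m has another response element spelling, GAAANNGAA, then TGACG and ATTGG, while Tap1 has TGACG and a reverse ATTGG farther upstream. No match in these stretches shares a base with another. On both strands of 32851 windows from 250 bases before to 50 after a start site, GGGGATTCC was found in 0.250%, GAANTGAAA in 1.83%, GGGANTTCC in 1.68%, GAAANNGAA in 8.56%, TGACG in 20.8% and ATTGG in 37.4%. Of the 10 genes, 9 had ATTGG, 6 TGACG, 5 GAANTGAAA, 4 GGGGATTCC, 2 GAAANNGAA (B2m and H2-T23) and 1 GGGANTTCC. TTCNNNGAA, the gamma-activated site, was in 8.30% of windows and 1 of the 10, Psmb8. GGGGATTCC and GAANTGAAA were added after the windows had been read, and a match describes letters only.

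Heavy chains are close copies, which bears on how reads are shared among them. Over aligned coding bases H2-Q6 and H2-Q7 were 95.4% identical, H2-K1 and H2-D1 92%, H2-Q4 and H2-Q7 90.8%, and H2-K1 and H2-T23 83.7%. Of all 50-base windows of the H2-Q7 transcript 20.6% were found unchanged in another of the 12 heavy chain transcripts compared, and 19.6% in H2-Q6, against 8.79% for H2-K1. The read-sharing error that RSEM gave with the counts was at most 6.96 counts for H2-Q7, in Tie2Cre_H2Abf_9576, where its count was 3446. Across genes and libraries it was largest relative to the count for H2-T23 (2.99%). This error covers only the genes in the annotation that was used. H2-Q8 and H2-Q9, further copies of H2-Q6 and H2-Q7, were not analysed here, so values for H2-Q6 and H2-Q7 may hold reads of them.

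Per length, H2-K1, the first classical heavy chain, was the most abundant of the 10, with a median of 760.3 TPM over the 20 libraries. B2m followed with a median of 644 TPM and H2-D1, the other classical heavy chain of this strain, with 569 TPM. H2-Q4, which encodes the non-classical molecule Qb-1, had a median of 191 TPM. Tapbp (tapasin) had 164 TPM, and H2-Q7 and H2-Q6, which encode the Qa-2 antigen, had 160.0 and 90.7 TPM. Psmb8, the immunoproteasome subunit also called LMP7, stood at 63.3 TPM and Tap1, one of the transporter's subunits, at 60.4 TPM. H2-T23, the heavy chain of Qa-1, which presents leader peptides of other class I molecules to NK cell receptors, was the lowest with a median of 21 TPM. In read counts H2-K1 and H2-D1 ranked 24 and 26 of the 14875 tested genes by mean CPM.

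The order of the backgrounds differed between genes and between the scales. In CPM H2-K1 and H2-D1 had their highest mean in WT, with Tie2Cre_H2Abf next. H2-Q4, H2-Q6, H2-Q7, Tap1 and Tapbp had it in Tie2Cre_H2Abf, H2-T23 in CD4KO, B2m in TCRKO and Psmb8 in the libraries labelled CD8KO. Neighbours in these orders mostly overlapped, but they are neighbours because their means are close, and this was not counted over all genes. H2-Q7 in the 4 Tie2Cre_H2Abf libraries lay above the next background, CD4KO. In mean TPM the order was another: H2-K1 was highest in the libraries labelled CD8KO (1504 TPM), then CD4KO (1324 TPM) and WT (1033 TPM), H2-D1 in CD4KO (798 TPM), and H2-Q6, H2-Q7 and B2m in CD8KO. The CD8KO means in TPM rest on CD8KO_9752, the library with little abundant RNA, which had 3156 TPM of H2-K1 against 869.6 and 485 TPM in the other 2. The tests and orders that follow are on the CPM scale.

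**Figure D1:**
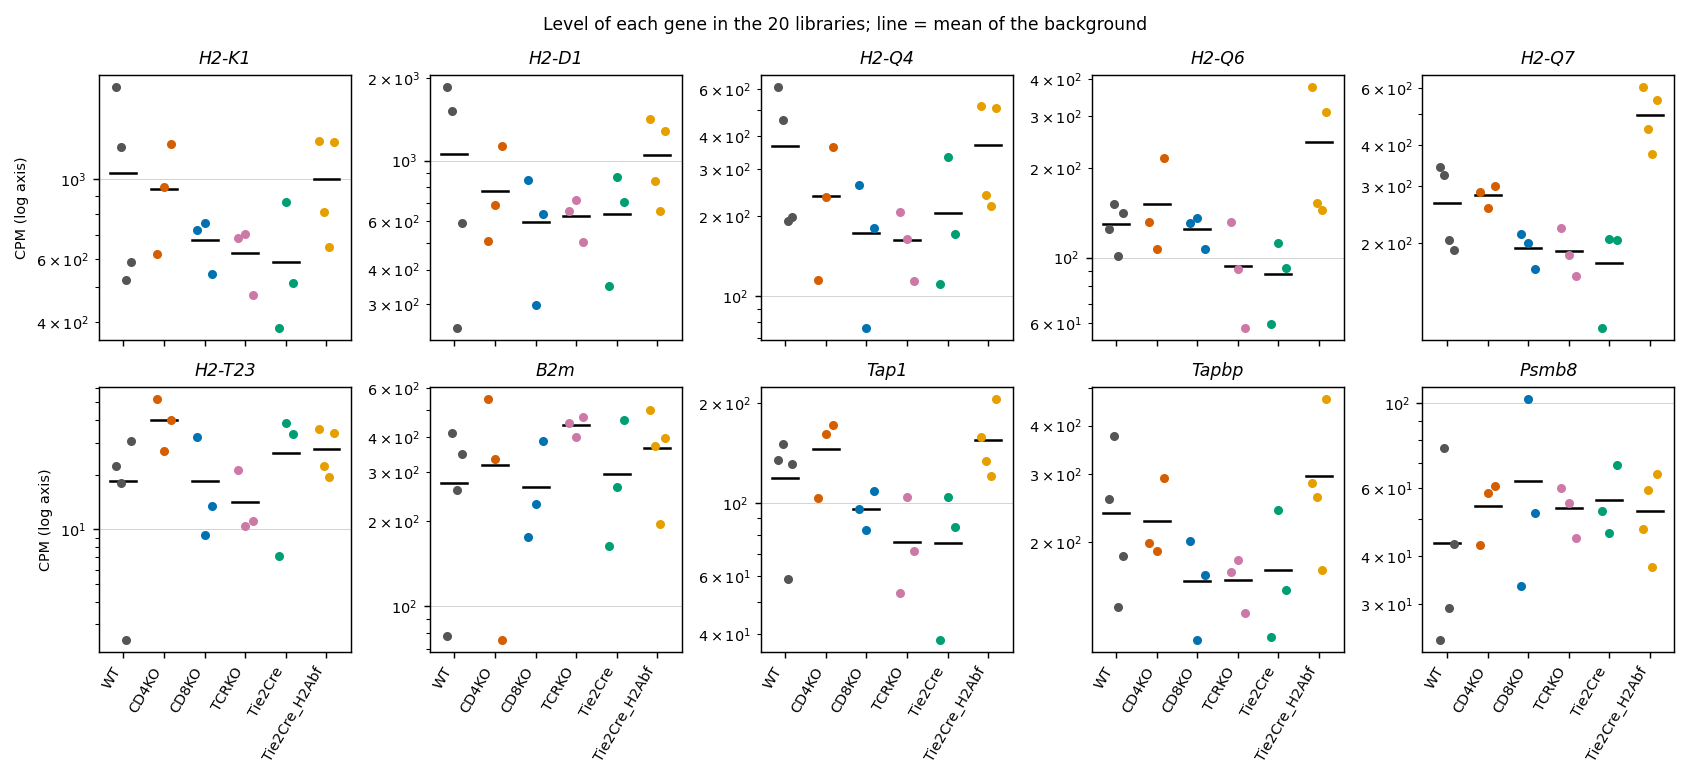
CPM of the 10 genes on log axes, 1 point per library, grouped by host background, with a line at each background's mean. H2-Q7 in the 4 Tie2Cre_H2Abf libraries (375 to 608 CPM) lies above all other libraries on this scale, while for B2m single libraries of WT and CD4KO lie far below the rest.

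Tie2Cre_H2Abf against Tie2Cre sets hosts with the floxed H2-Ab1 allele and Tie2Cre against hosts with Tie2Cre alone. No group holds the floxed allele without Cre. A difference that comes with the allele or the linked MHC sequence therefore cannot be told apart from one due to the deletion. In CPM the 2 Qa-2 genes and Tap1 were higher in every Tie2Cre_H2Abf library than in any Tie2Cre library, but no gene of the 10 passed the edgeR test. H2-Q7 stood at 608, 450.0, 375 and 554 CPM in Tie2Cre_H2Abf and at 109, 205 and 205 CPM in Tie2Cre. The lowest Tie2Cre_H2Abf library was thus above the highest Tie2Cre library, and also above the highest of all other libraries, WT_9748 at 343 CPM. In the deposited TPM the 4 Tie2Cre_H2Abf libraries, at 219.5 to 248.9 TPM, were also above the 3 Tie2Cre libraries, but CD8KO_9752 (567 TPM), CD4KO_9770 (331 TPM) and WT_9748 (249.1 TPM) were above all 4, so the separation from the other 16 holds only in CPM. Its log2 change was 1.52 ± 0.34 (SE, interval 0.82 to 2.22; edgeR adjusted p = 0.218). Of all tested genes 0.134% had all 4 Tie2Cre_H2Abf libraries above the other 16, a pattern looked for only after the values of H2-Q7 had been seen.

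H2-Q6 stood at 378, 153, 144 and 309.9 CPM in Tie2Cre_H2Abf and at 59.9, 112 and 92.2 CPM in Tie2Cre. The groups did not overlap, and Tie2Cre_H2Abf_9576 and Tie2Cre_H2Abf_9589 were the high pair of the 4, as they were for H2-Q7, H2-K1 and H2-D1. Its log2 change was 1.48 ± 0.41 (SE; edgeR adjusted p = 0.575). Tap1 stood at 158, 134, 121 and 206 CPM against 38.4, 104 and 84.7 CPM. These groups did not overlap in CPM, but they did in TPM, where Tie2Cre_H2Abf_9582 (55.8 TPM) was below Tie2Cre_9504 (57.5 TPM). In CPM Tie2Cre_9501, a satellite-rich library, was the lowest of all 20, and in TPM WT_9771 was (8.09 TPM). The log2 change of Tap1 was 1.03 ± 0.41 (SE; edgeR adjusted p = 0.575). In all, 3 of 10 genes showed no overlap of CPM in this comparison, against 9.04% of all tested genes. These 3 were measured in the same libraries and varied together, and H2-Q6 and H2-Q7 are close copies. Counts of genes here and below are thus not counts of independent results.

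In CPM the classical heavy chains and tapasin were higher on average with overlapping libraries. H2-K1 stood at 1277, 811, 646 and 1272 CPM against 386, 862 and 512 CPM, a log2 change of 0.77 ± 0.41 (SE, interval -0.06 to 1.61). H2-D1 stood at 1413, 839.7, 653 and 1277 CPM against 347, 870.3 and 704 CPM (0.71 ± 0.50). Only 1 of the 3 Tie2Cre libraries, Tie2Cre_9502, reached into the Tie2Cre_H2Abf range of H2-K1. H2-Q4 had a log2 change of 0.86 ± 0.51 and Tapbp of 0.80 ± 0.40, while B2m (0.30 ± 0.53), H2-T23 (0.07 ± 0.63) and Psmb8 (-0.09 ± 0.44) lay within 1 SE of 0. The median over the 10 genes was 0.79, with 9 of 10 higher (8 of 10 with RLE factors, DESeq2 or protein-coding totals, where H2-T23 turned negative), beside -0.24 over all tested genes. Without Tie2Cre_9501 the change was 0.41 for H2-D1 and 0.56 for H2-Q4, and without Tie2Cre_9502 it was 1.18 for H2-K1 and 1.42 for H2-Q4. With RLE factors the median of all genes shifted by -0.19, and relative to it the 10 genes stood about as far above as before, at 0.64 beside -0.43.

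The edgeR test called 0 of the 10 in this comparison and 0.0202% of all tested genes, and 3 of the 10 had an unadjusted p under 0.05, as did 8.55% of all. DESeq2 called 0.383% of all genes, among them H2-Q7 (1.37 ± 0.23, adjusted p = 9.33e-06) and H2-Q6 (adjusted p = 0.0235). Over the other alternatives the adjusted p of H2-Q7 ran from 0.0644 (limma-voom) to 0.985 (without Tie2Cre_9501). Its log2 change over all 15 alternatives, DESeq2 included, ran from 1.25 to 1.68. With all H2-Q genes summed into 1 feature, so that reads shared among them are added together, the log2 change was 1.22 ± 0.37 (SE; edgeR adjusted p = 0.576). Endothelial identity genes were higher in Tie2Cre_H2Abf too, 11 of 12 with a median log2 change of 0.34 and summed levels of 5182 to 7732 against 3359 to 6352 CPM. Fibroblast and pericyte markers were lower in 7 of 9 (summed 3.75 to 13.1 against 24.3 to 76.5 CPM). B cell and dendritic cell markers were lower in 5 of 5 (median -1.75), summed at 18.1 to 30.9 against 22 to 107 CPM. The 107 CPM was Tie2Cre_9501, and the other Tie2Cre libraries (25.5 and 22 CPM) lay within the Tie2Cre_H2Abf range. Of the 8 genes listed, 6, 5, 1 and 7 were at 0 in the Tie2Cre_H2Abf libraries and 2, 5 and 2 in Tie2Cre. Of all tested genes 41.6% were higher in Tie2Cre_H2Abf. Macrophage markers were higher in 8 of 12 and, summed, ran from 97.8 to 637 against 184 to 302 CPM. The part of these markers in the result was not tested, and in bulk RNA fewer cells of a type and less RNA per cell cannot be told apart.

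**Figure D2:**
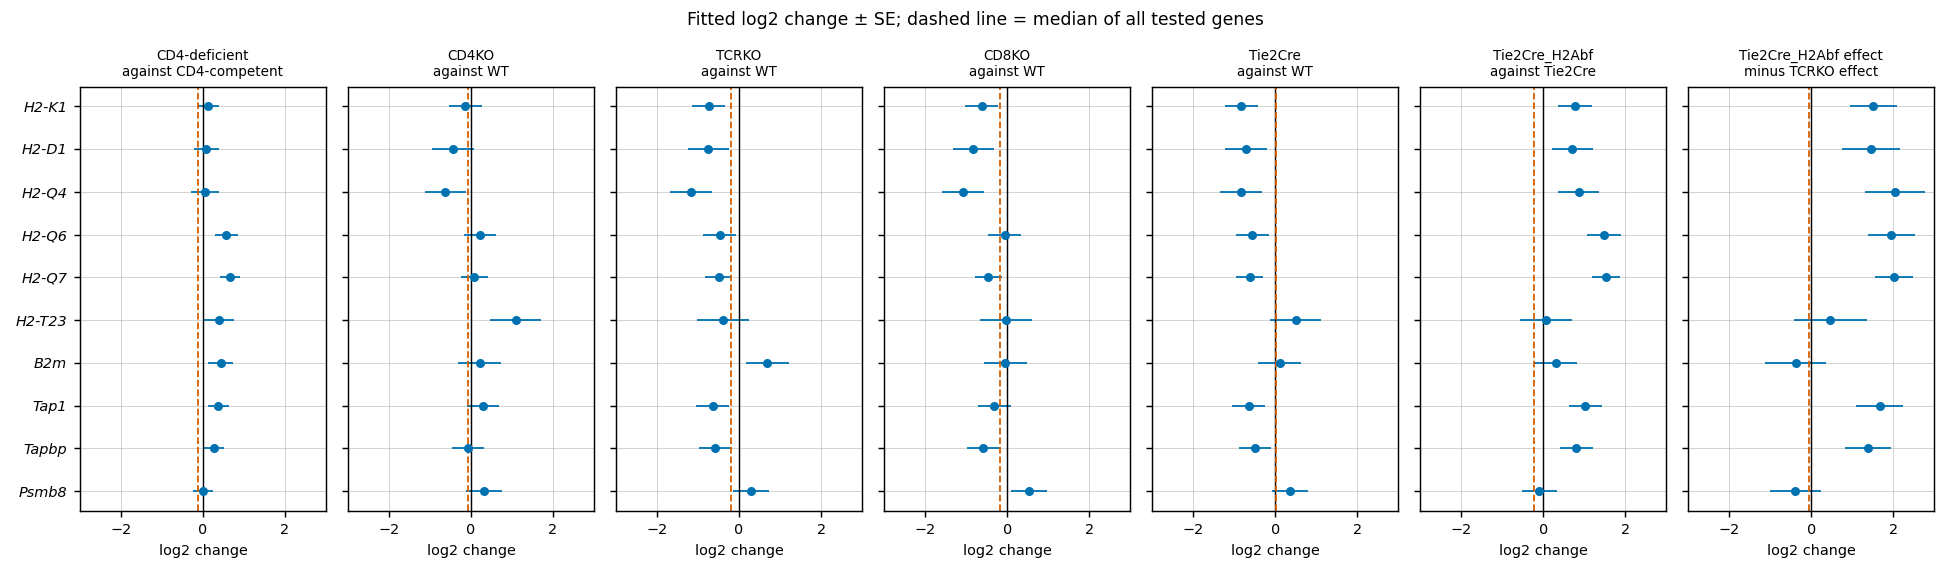
Fitted log2 change with its SE for each gene in 7 comparisons, with a solid line at 0 and a dashed line at the median of all tested genes. In Tie2Cre_H2Abf against Tie2Cre 9 of 10 genes lie above 0 (8 with RLE factors), in TCRKO against WT 8 lie below it, and no gene in any panel passed the edgeR test.

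TCRKO, classed as CD4-deficient, was compared with WT. The 6 heavy chains, Tap1 and Tapbp had negative log2 changes in TCRKO, and B2m and Psmb8 positive ones, none past the test. H2-Q4 had the lowest p of the 10, at 207, 165 and 115 CPM in TCRKO and 615, 461, 192 and 199 CPM in WT. The WT libraries fell into a high and a low pair, and TCRKO overlapped the low pair. Its log2 change was -1.18 ± 0.52 (SE; edgeR adjusted p = 0.560). H2-K1 stood at 686, 702 and 476 CPM against 1809.8, 1229, 524 and 588 CPM (-0.74 ± 0.41), and again WT_9748 and WT_9749 were high and the other WT libraries within or near the TCRKO range. Without WT_9748 the change was -0.33 for H2-K1, -0.32 for H2-D1 and 0.38 for B2m. B2m stood at 450.3, 400.5 and 472 CPM in TCRKO and 78.3, 413, 258 and 348 CPM in WT, a log2 change of 0.68 ± 0.52 (SE). The 10 genes had a median log2 change of -0.54, beside -0.20 over all genes. None of the 10 was called and none was without overlap, against 0.0269% and 7.68% of all tested genes. An unadjusted p under 0.05 was reached by 1 of the 10 and 8.65% of all genes, and DESeq2 called 0 of the 10 and 1.19% of all. Endothelial identity genes were lower in TCRKO in 8 of 12 (median log2 change -0.28) and macrophage markers in 8 of 12 (-0.20). Over all tested genes the median was -0.20 too, and only 43.1% were higher in TCRKO. B cell and dendritic cell markers were lower in 4 of 5 (-0.64), and the part of these markers was not tested.

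The effect of Tie2Cre_H2Abf over Tie2Cre was also set against that of TCRKO over WT. The difference of the effects had its highest estimates for H2-Q4 (2.04 ± 0.73), H2-Q7 (2.02 ± 0.47) and H2-Q6 (1.95 ± 0.57), followed by Tap1 (1.67 ± 0.57), H2-K1 (1.51 ± 0.57) and H2-D1 (1.45 ± 0.71). H2-Q7 had the lowest edgeR adjusted p, 0.212. B2m (-0.38 ± 0.74) and Psmb8 (-0.39 ± 0.62) had differences of the other sign, each within 1 SE of 0. The median over the 10 was 1.48 and over all genes -0.05. The edgeR test called 0 of the 10 and 0.0% of all genes, and 6 of the 10 had an unadjusted p under 0.05, as did 6.8% of all. These 6 were measured in the same libraries and belong to a block of 7 genes that varied together, described below. They are therefore not independent results. DESeq2 called 0.484% of all genes, with H2-Q7 (adjusted p = 6.71e-06), H2-Q6 (0.0180) and Tap1 (0.0289) among them. In this difference endothelial identity genes were higher in 9 of 12 (median 0.61) and fibroblast and pericyte markers lower in 7 of 9 (-1.40). B cell and dendritic cell markers were lower in 4 of 5 (-1.73), with their highest sum, 107 CPM, in Tie2Cre_9501. Of all tested genes 48.7% were higher, and the part of these markers was not tested.

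The submitters' division by CD4 status set 10 deficient against 10 competent libraries. This 2-group model takes libraries of different backgrounds as replicates of 1 condition. With means of the backgrounds in the 6-group model the log2 change of H2-K1 was 0.17, and 0 of the 10 were called. All 10 genes had a positive log2 change in deficient hosts (8 of 10 with RLE factors, where H2-Q4 and Psmb8 turned negative), with a median log2 change of 0.32 beside -0.11 over all genes, but 0 were called. In mean TPM H2-K1 (912 against 1072 TPM), H2-D1 (608 against 646 TPM) and H2-Q4 (203 against 216 TPM) were lower in deficient hosts. So were B2m (748 against 768 TPM) and Psmb8 (70 against 112 TPM), while the rest of the 10 were higher. The competent means include CD8KO_9752, the library with little abundant RNA. H2-Q7 had the largest change, 0.65 ± 0.25 (SE; edgeR adjusted p = 0.536). Its deficient libraries ran from 158 to 608 CPM with a median of 293, and the competent ones from 109 to 343 CPM with a median of 205. The 4 highest deficient values were the 4 Tie2Cre_H2Abf libraries. Among the libraries of the other range of numbers, which hold no Tie2Cre_H2Abf or Tie2Cre, the log2 change of H2-Q7 was 0.00 ± 0.26 (SE) and that of H2-Q4 -0.51. H2-Q6 had a change of 0.57 ± 0.27 and B2m of 0.43 ± 0.30, while H2-K1 (0.13 ± 0.25), H2-D1 (0.08 ± 0.31), H2-Q4 (0.05 ± 0.33) and Psmb8 (0.01 ± 0.25) were near 0. Of all genes the edgeR test called 0.0%, with 7.27% under an unadjusted p of 0.05 where 2 of the 10 were. DESeq2 called 0 of the 10 and 0.0739% of all. Fibroblast and pericyte markers were lower in deficient hosts in 8 of 9 (median -0.81) and B cell and dendritic cell markers in 4 of 5 (-0.64). Tie2Cre_9501, a competent library, had the highest sum of the latter, 107 CPM. Of all tested genes 42.9% were higher in deficient hosts, and the part of these markers was not tested. The change of H2-Q6 was 0.37 without Tie2Cre_H2Abf_9576.

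In CD4KO against WT 6 of the 10 genes had positive and 4 negative log2 changes (5 and 5 with RLE factors). H2-T23 had the highest, at 52.2, 27.1 and 40.2 CPM against 22.3, 18, 2.45 and 30.7 CPM. WT_9771 was low with 3 counts, and the highest WT library exceeded the lowest CD4KO library. Its log2 change was 1.09 ± 0.62 (SE; edgeR adjusted p = 0.627). H2-K1 (-0.14 ± 0.40), H2-Q7 (0.08 ± 0.32), Tapbp (-0.07 ± 0.39) and B2m (0.21 ± 0.52) were all within 1 SE of 0. For H2-K1 the interval ran from -0.97 to 0.68. B2m stood at 547, 333 and 75.4 CPM, with CD4KO_9770 far below the other 2 CD4KO libraries. Single libraries set the sign of these small changes: B2m was at -0.40 without CD4KO_9768 and 0.69 without CD4KO_9770, and H2-K1 at 0.27 without WT_9748. None of the 10 was called or without overlap, against 0.0% and 3.92% of all genes, and 0 had an unadjusted p under 0.05, against 8.59% of all. DESeq2 called 0 of the 10 and 0.632% of all genes. The median over the 10 was 0.15, beside -0.08. On the TPM scale the mean of every one of these genes was higher in CD4KO than in WT. H2-K1 was at 1324 against 1033 TPM and H2-D1 at 798 against 711 TPM.

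In CPM the libraries labelled CD8KO had lower means than WT for the classical heavy chains and tapasin. In mean TPM H2-K1 (1504 against 1033 TPM) and Tapbp (197 against 157 TPM) were higher in CD8KO. H2-Q4 stood at 263, 76.2 and 181 CPM (-1.08 ± 0.52, SE; edgeR adjusted p = 0.470), with CD8KO_9752 the lowest of all 20 libraries. H2-D1 stood at 851, 297 and 636 CPM (-0.82 ± 0.51) and H2-K1 at 722, 757 and 546 CPM (-0.62 ± 0.40). CD8KO_9752 was low in H2-D1 and highest of the 3 in H2-K1. Psmb8 stood at 33.5, 102 and 51.9 CPM (0.53 ± 0.44), and here the same library was the highest of all 20. Without CD8KO_9752 the change was 0.09 for Psmb8, -0.65 for H2-Q4 and -0.45 for H2-D1, and without WT_9748 that of H2-K1 was -0.21. Of the 10 genes 9 were lower, with a median of -0.39 beside -0.18. None was called by edgeR or DESeq2, against 0.0% and 0.551% of all genes. An unadjusted p under 0.05 was reached by 1 of the 10 and 10.5% of all, and none was without overlap, against 5.16%. Beside these values, macrophage markers were lower in 12 of 12 (median log2 change -0.44) and endothelial identity genes higher in 12 of 12 (0.36), and their part in the result was not tested.

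Tie2Cre against WT compares the Cre control with WT, and both also serve as controls elsewhere. H2-K1 stood at 386, 862 and 512 CPM in Tie2Cre, a log2 change of -0.82 ± 0.41 (SE, interval -1.66 to 0.01). The log2 change was -0.62 ± 0.33 for H2-Q7, -0.72 ± 0.50 for H2-D1 and -0.65 ± 0.40 for Tap1, and Tie2Cre_9501 was the lowest of the 3 in each. Without Tie2Cre_9501 these were -0.35, -0.41 and -0.31, and without WT_9748 the change of H2-K1 was -0.41 and that of H2-D1 -0.29. B2m (0.11 ± 0.52), Psmb8 (0.36 ± 0.44) and H2-T23 (0.50 ± 0.62) were within 1 SE of 0. Macrophage markers were lower in 11 of 12 (median -1.03), at summed levels of 184 to 302 against 273 to 689.9 CPM, and their part was not tested. The median over the 10 was -0.59, beside 0.02 over all genes. None of the 10 was called by edgeR or DESeq2, against 0.0% and 0.524% of all. None had an unadjusted p under 0.05 or showed no overlap, against 6.86% and 4.21%. All of CD4KO, TCRKO, CD8KO and Tie2Cre were set against the same 4 WT libraries, whose H2-K1 levels spanned 524 to 1809.8 CPM, so the lower estimates in TCRKO, CD8KO and Tie2Cre are not independent of each other. In a test of any difference among the 6 backgrounds 0 of the 10 were called, with H2-Q7 lowest (edgeR adjusted p = 0.159) and H2-Q6 next (0.464), against 0.0605% of all genes called. In that test 2 of the 10 and 9.34% of all genes had an unadjusted p under 0.05, and DESeq2 called H2-Q6, H2-Q7 and 1.82% of all genes.

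Across the 20 libraries the genes fell into a block and 3 genes beside it. H2-K1, H2-D1, H2-Q4, H2-Q6, H2-Q7, Tap1 and Tapbp varied together, with Spearman correlations of log2 CPM between 0.49 and 0.88 over their 21 pairs (median 0.78). B2m correlated with these 7 at -0.16 to 0.05, Psmb8 at -0.07 to 0.24 and H2-T23 at 0.45 to 0.66. Without WT_9771, Tie2Cre_9501 and CD8KO_9752 the block's pairs ran from 0.45 to 0.92, B2m from -0.44 to -0.09, Psmb8 from 0.09 to 0.25 and H2-T23 from 0.23 to 0.47 (median 0.32, from 0.53). These are descriptions over libraries that share their scaling and depth, and the block was drawn after the values were seen. Tap1 and Psmb8, neighbours on the chromosome, correlated at 0.16.

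**Figure D3:**
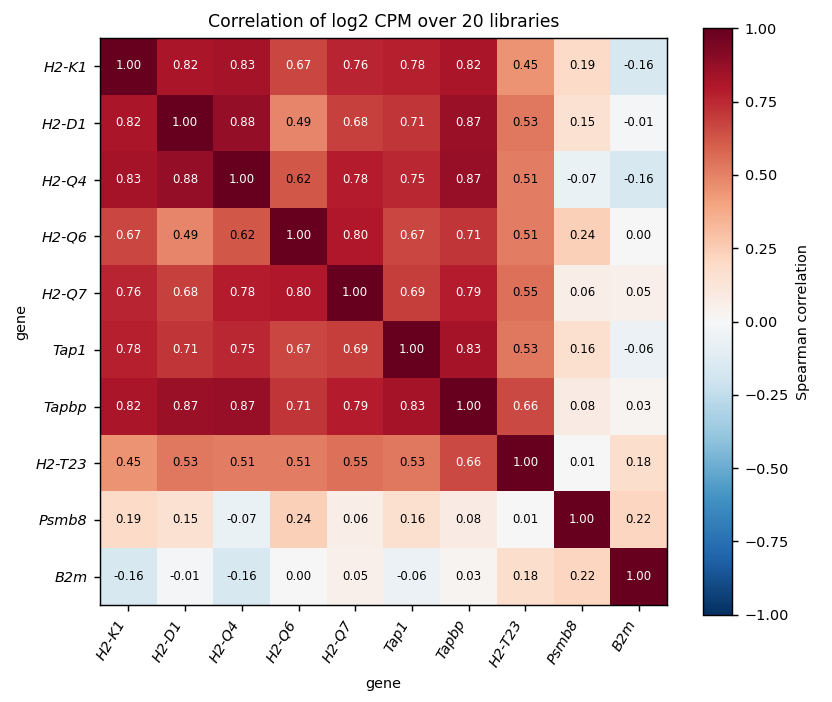
Spearman correlation of log2 CPM over 20 libraries for each pair of the 10 genes, from blue (negative) to red (positive), with the value printed in each square. The 7 genes at the upper left form a block with pairs of 0.49 or more, and the rows of B2m and Psmb8 are near 0 against it.

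Spread within backgrounds also differed. The pooled SD of log2 CPM within backgrounds was 0.34 for H2-Q7, smaller than for all but 2.48% of 847 genes with a mean of at least 50 CPM. It was 0.56 for H2-K1, near the median of these genes (0.60), and 0.81 for H2-D1, 0.88 for B2m and 1.01 for H2-T23.

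Ratios within a library do not depend on how libraries are scaled. The H2-Q genes together made up 26.8 to 30.1% of the summed TPM of the 6 heavy chains in Tie2Cre_H2Abf and 22.3 to 23.7% in Tie2Cre. The 4 Tie2Cre_H2Abf libraries were all above the 3 Tie2Cre libraries, and of the other 13 libraries WT_9771 (29.4%) lay in their range. The ratio of H2-Q7 to H2-K1 was 0.269 to 0.305 in Tie2Cre_H2Abf and 0.159 to 0.234 in Tie2Cre, and CD4KO_9768 (0.314) was the highest of all. H2-K1 took a median of 43.5% and H2-D1 30.6% of the summed TPM. In WT_9771 and CD8KO_9752 the share of H2-D1 was 14.3% and 17.7%, the lowest of the 20. Both libraries stood apart in their overall RNA, one rich in satellite repeats and the other poor in abundant RNA.

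**Figure D4:**
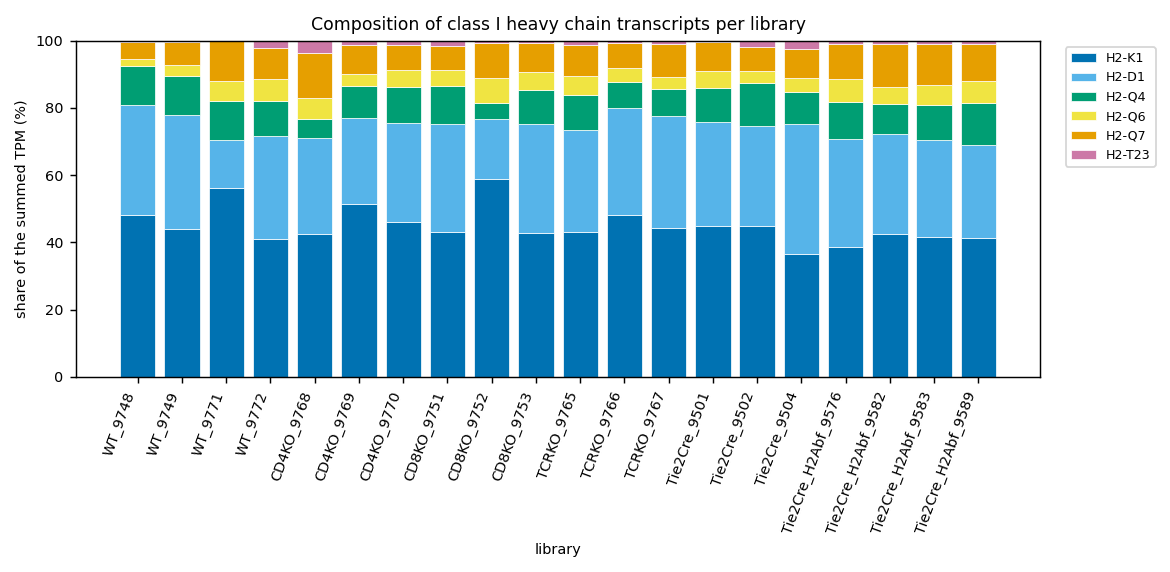
Share of each of 6 heavy chains in their summed TPM, 1 bar per library, in percent. H2-K1 and H2-D1 make up most of every bar, H2-D1 is smallest in WT_9771 and CD8KO_9752, and the H2-Q shares of the 4 Tie2Cre_H2Abf bars add up to 26.8 to 30.1%.

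B2m, the partner of every heavy chain, did not follow them. It stood lowest in WT_9748 and CD4KO_9770 (78.3 and 75.4 CPM), libraries in which H2-K1 was at 1809.8 and 1254 CPM. B2m TPM per summed heavy chain TPM ran from 0.0452 in WT_9748 to 0.849 in TCRKO_9767. It was 0.270 to 0.381 in Tie2Cre_H2Abf, 0.297 to 0.679 in Tie2Cre, 0.534 to 0.849 in TCRKO and 0.0452 to 0.551 in WT, so that TCRKO overlapped WT only at the top of the WT range. The transcript of B2m is short, and over the 20 libraries the ratio moved with the share of protein-coding counts that fell on other genes whose longest transcript is under 1000 bases (Spearman 0.91). That share was 0.804% in WT_9748, 1.18% in CD4KO_9770, 4.92% in TCRKO_9767 and 5.21% in CD4KO_9768. Its correlation with the CPM of B2m was 0.72 and with that of H2-K1 -0.54. The part of this share in the B2m levels was not tested.

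**Figure D5:**
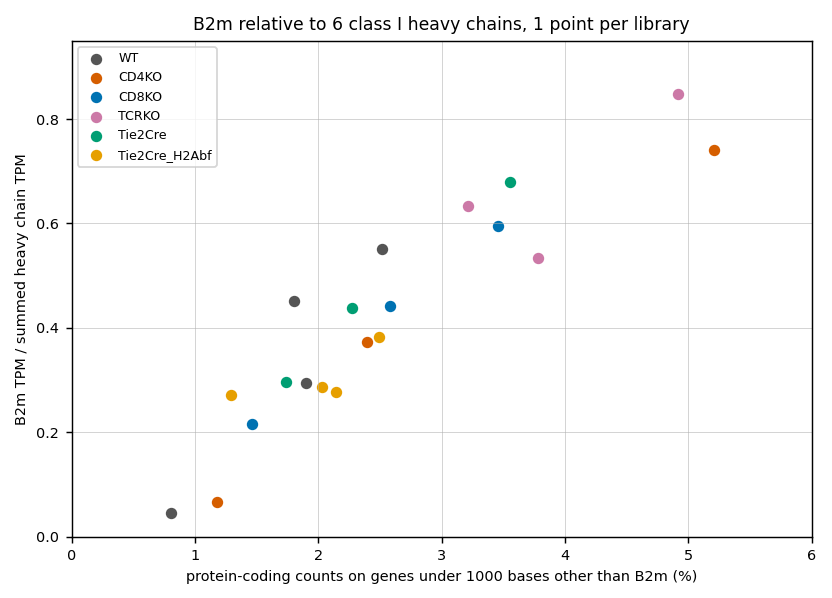
B2m TPM divided by the summed TPM of 6 heavy chains (vertical) against the percentage of protein-coding counts on short genes other than B2m (horizontal), 1 point per library coloured by background. WT_9748 and CD4KO_9770 lie at the lower left, and CD4KO_9768 and TCRKO_9767 at the upper right.

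By rule, the genes whose pattern over 20 libraries was most like the mean of the 10 were sought among 4172 genes with a mean of at least 10 CPM. They were Igtp, an interferon-inducible GTPase (Spearman 0.87), Cd74, the class II invariant chain (0.85), Gm8995 (0.83), Vwa1, a matrix protein with a von Willebrand factor domain (0.81), and H2-Aa, a class II alpha chain (0.80). The median over all genes compared was 0.20.

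Other genes of the pathway were described with the same fits, and in 7 lists only H2-Ab1, the deleted gene, passed, in Tie2Cre_H2Abf against Tie2Cre (-4.26 ± 0.59, SE; edgeR adjusted p = 0.00213). Of 6 further loading genes 5 were higher in that comparison, with a median of 0.97. Tap2, which pairs with Tap1, had a log2 change of 1.75 ± 0.77, and Erap1, which trims peptides in the endoplasmic reticulum, stood at 16.8, 23.1, 17 and 23.7 CPM against 0.754, 8.74 and 11.5 CPM (1.49 ± 0.70). The Erap1 groups did not overlap, and neither gene passed (edgeR adjusted p = 0.575 and 0.575). Calr, a chaperone of the loading complex, was at 0.55 ± 0.44 there and at -1.20 ± 0.45 in Tie2Cre against WT. In TCRKO against WT all 6 were lower (median -0.56), with Erap1 at -1.31 ± 0.69. The same held for 6 of 6 in CD8KO (median -0.57) and 5 of 6 in Tie2Cre (median -0.86, Erap1 -1.67 ± 0.70), against the same WT libraries. Over all tested genes the median was -0.20 in TCRKO, -0.18 in CD8KO and 0.02 in Tie2Cre against WT. It was -0.24 in Tie2Cre_H2Abf against Tie2Cre.

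Of 7 tested further heavy chains 6 were higher in Tie2Cre_H2Abf than in Tie2Cre (median 1.14). H2-T22, a non-classical heavy chain recognised by some gamma-delta T cells, stood at 55.9, 65, 33.1 and 78.7 CPM against 20.4, 23.9 and 34.5 CPM with overlapping libraries and a log2 change of 1.14 ± 0.49 (SE; edgeR adjusted p = 0.575). By CD4 status its log2 change was 0.77 ± 0.27 (edgeR adjusted p = 0.478) and in CD4KO against WT 1.00 ± 0.47. In TCRKO against WT 4 of the 7 were higher (median 0.48), and H2-Q5 was at -1.14 ± 0.63. Of the 5 tested class I-like molecules only Hfe, an iron-uptake regulator that also binds B2m, had a mean of at least 10 CPM, and its log2 change in Tie2Cre_H2Abf against Tie2Cre was -0.66 ± 0.94.

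Of the 4 further immunoproteasome and activator genes none passed. Over Psmb9, Psmb10, Psme1 and Psme2 the median change in Tie2Cre_H2Abf against Tie2Cre was 0.05, with 2 of 4 higher. In CD4KO against WT 4 of 4 were higher (median 0.77), and the largest difference in CD4KO against WT was that of Psmb10, at 27.4, 18.9 and 15.8 CPM against 7.59, 11, 1.64 and 13 CPM (1.28 ± 0.63, SE; edgeR adjusted p = 0.587). The CD4KO libraries lay above the WT libraries there. The 14 constitutive proteasome subunits had a median of 0.56 in TCRKO against WT, 10 of 14 higher, and of -0.22 in Tie2Cre_H2Abf against Tie2Cre, 10 of 14 lower, beside -0.20 and -0.24 over all genes. Psmb3 was at 1.49 ± 0.54 in TCRKO against WT (edgeR adjusted p = 0.533).

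Among 20 tested regulators of class I genes none passed. Nlrc5, the transactivator of class I promoters, stood at 22, 36.9 and 34.2 CPM in TCRKO and 152, 40.2, 44.1 and 27.7 CPM in WT, a log2 change of -1.09 ± 0.52 (SE; edgeR adjusted p = 0.575). The WT libraries overlapped the TCRKO range at their low end. Its effect differed between Tie2Cre_H2Abf and TCRKO by 1.52 ± 0.73 (adjusted p = 0.727), and Irf2, an interferon regulatory factor, by 2.48 ± 1.08 (adjusted p = 0.672). The list had 15 of 20 lower in TCRKO (median -0.74), 13 of 20 in CD8KO (-0.28) and in Tie2Cre (-0.27) against WT. In Tie2Cre_H2Abf against Tie2Cre 15 of 20 were higher (median 0.24). Over all tested genes 43.1% were higher in TCRKO (median -0.20), 43.4% in CD8KO (-0.18) and 50.9% in Tie2Cre (0.02) against WT. In Tie2Cre_H2Abf against Tie2Cre 41.6% of all were higher (median -0.24). Of 8 class II genes 7 were lower in TCRKO (median -1.61) and 7 higher in Tie2Cre_H2Abf against Tie2Cre (median 1.68). Against the same WT libraries 8 of 8 were lower in Tie2Cre (median -0.97) and 7 of 8 in CD8KO (median -1.05). Cd74 was at -2.19 ± 0.55 in CD8KO and -1.98 ± 0.55 in Tie2Cre against WT (edgeR adjusted p = 0.465 and 0.491). It was at -2.48 ± 0.56 in TCRKO against WT, 1.61 ± 0.54 in Tie2Cre_H2Abf against Tie2Cre and 4.09 ± 0.77 in the difference of these effects (edgeR adjusted p = 0.145, 0.575 and 0.0959).

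Over the 20 libraries the mean z-score of the 10 genes correlated with the summed CPM of class II genes at 0.88, of the class I regulators at 0.88, of endothelial identity genes at 0.62 and with the total count at 0.56 (Spearman). For macrophage markers the value was 0.15, for pan-leukocyte and T cell markers -0.01, for B cell and dendritic cell markers -0.02, for fibroblast and pericyte markers -0.55 and for epithelial markers -0.28. The leukocyte and T cell markers and the epithelial markers were summed at no more than 69.8 and 18.1 CPM in any library, and macrophage markers at 97.8 to 769 CPM. Of the 7 leukocyte and T cell markers, 3 were at 0 throughout WT, 3 throughout TCRKO and 3 throughout Tie2Cre. In CD4KO, CD8KO and Tie2Cre_H2Abf this held for 2, 1 and 0. Of the 8 epithelial markers, 5 were at 0 throughout CD8KO and 5 throughout Tie2Cre_H2Abf. In TCRKO, WT, CD4KO and Tie2Cre this held for 4, 3, 3 and 2. Their part in the levels of the 10 genes was not tested.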

How the data were processed

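RNA was read from 20 libraries of sorted CD31-positive cells, amplified with MATQ and made into Nextera XT libraries, per the labels' protocols. This kit does not mark strand. The submitters' processing notes name bcl2fastq 2.17, STAR, RSEM 1.2.28, DESeq2 and build GRCm38, while no source used here gives the annotation release. The authors deposited, per library, RSEM expected counts (estimated counts, not normalized, 4.45% not whole, rounded here) and TPM, which is scaled for length and depth. Also deposited were scores for the error of both, of which the posterior SD of the count is printed. Symbols and positions came from GENCODE M21 for 46488 of 46983 IDs.

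The main test was edgeR 4.0.16 (R 4.3.3) quasi-likelihood with TMM factors, filterByExpr by group and Benjamini-Hochberg adjustment over 14875 genes, threshold 0.05. CD4 status used a 2-group model and all else a 6-group model in which backgrounds share the spread (biological coefficient of variation 0.995). SEs come from the F statistic, and intervals are at 95%. The 10 genes and the lists were chosen with earlier results of these data known. Named genes are the 10, up to 3 per other list and comparison ranked by p among genes averaging 10 CPM or more (given in part), and the 5 genes most like the mean z-score. Coding-base identity came from transcripts, and promoters from RefSeq (GRCm38.p6), where 10 of 10 symbols matched. The scripts were tested on simulated data. Alternatives were DESeq2 1.42.0, limma-voom 3.58.1 with sample weights, RLE factors, no filter, other library sets and leaving out each library in turn. In each of 24 replicate pairs chi-square per degree of freedom was 15.9 or more, and no library was treated as deposited again. One gene near Psmb8 in pattern is not reported here.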

Additional observations from a re-analysis of the deposited data

How the results depend on the processing

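The edgeR fits called 0 of the 10 genes in each of the 8 comparisons, and this held with RLE factors, no filter on low counts, limma-voom, removal of abundant and satellite RNA, protein-coding totals, summed H2-Q genes, only the groups compared, and without the 2 satellite-rich libraries (WT_9771 and Tie2Cre_9501). It also held with each library of the groups compared left out in turn, which is 7 libraries in a comparison of 2 backgrounds, 14 in the difference of effects and 20 by CD4 status and in any difference. With DESeq2 the count was 2 in Tie2Cre_H2Abf against Tie2Cre, 3 in the difference of effects and 2 in any difference among the backgrounds; the cause was not tested. Among 1309 recomputed changes of single genes, 73 changed sign within 1 SE of the main value and 7 by more. Without Tie2Cre and Tie2Cre_H2Abf, whose numbers lie in a range of their own, the changes by CD4 status were -0.18 for H2-K1, -0.29 for H2-D1, -0.51 for H2-Q4, -0.0595 for H2-Q6 and -0.0819 for Tapbp. In CD4KO against WT, H2-K1 was 0.27 without WT_9748 and B2m ran from -0.40 without CD4KO_9768 to 0.69 without CD4KO_9770. RLE factors moved the median log2 change of all genes by -0.13 in CD4KO, -0.12 in TCRKO and -0.19 in CD8KO against WT, and protein-coding totals by -0.24 in the difference of effects. Over all tested genes the count of calls ranged more widely, from 0 to 177 in TCRKO against WT and from 1 to 672 in any difference (0 to 18 in TCRKO against WT with 1 library left out). No paired analysis was possible because no library number is used in more than 1 background. Depth limits H2-T23 most, which had 3 counts in WT_9771, and with 3 or 4 libraries a group and this spread the intervals of most genes allow changes of 1 or more on the log2 scale.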

Other observations

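B2m and Psmb8, which lay outside the block of heavy chains, had their own nearest genes, looked up after their values were seen, among the same 4172 genes over 20 libraries. For B2m these were S100a11, a small calcium-binding protein (Spearman 0.94), Tmsb4x, thymosin beta 4, which binds actin (0.88), Ly6a, the surface antigen Sca-1 (0.88), Ifitm3, an interferon-induced membrane protein (0.85), and mt-Nd1, a mitochondrial gene (0.85). For Psmb8 the nearest genes included Cdk4, a cell cycle kinase (0.74), and Psma2, a constitutive proteasome subunit (0.73). The median over all genes was -0.06 for B2m and 0.08 for Psmb8.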
